A study of Lens culinaris with 18 samples.

Results

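This set holds 150 assembled root transcripts of lentil (Lens culinaris, cultivar Sultan), of 124151 in the deposited table, that were lower in root after 96 h of polyethylene glycol than in the 96 h controls, with no such difference at 24 h. Wild-type seedlings were grown in perlite and moved at 7 days of age to aerated Hoagland's nutrient solution, a standard mineral feed, without additive (control) or with 15% PEG 6000 (drought). Root and leaf were sampled at 24 h and 96 h, which gives 8 groups of 2 libraries described as biological replicates: root and leaf, 24 h and 96 h, control and drought. The values are TPM (reads per transcript length, scaled to the library) multiplied by 1 TMM factor per library, a factor computed from the transcripts that libraries share. The depth of the libraries is unknown.

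The members were chosen on the root values themselves. To each value 1 was added. A transcript needed a mean of at least 5 over the root libraries and at least 2 over the leaf libraries, which 12320 did. The highest of the 96 h drought values had to be at most 0.33 of the lowest 96 h control value, which left 679. The ratio of drought to control means at 24 h had to lie between 0.5 and 2, which left 417. These were ranked by the lowest 96 h control value over the highest 96 h drought value, called the fall here, and the first 150 were taken. The fall was 5.30 and 5.28 at ranks 149 and 150, and 5.28 and 5.26 at the next ranks outside the set. The root differences below are therefore a description, without a test, and leaf, whose contrasts the rule did not use, was tested.

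PEG of high molecular weight lowers the water potential of the solution without entering living cells to a large extent, so that roots meet a water deficit at once and leaves meet it through the root. Plants under such a deficit close their stomata, slow their growth and change the transcripts of hormone, osmolyte, cell wall and transport genes in each organ. Seedlings also go on developing while they stand in solution, so a late control is older than an early one. The identifiers are those of an assembly made without a genome, and the table pairs none of them with a gene name. No function is therefore given, 6 identifiers are printed, and other members are named by their rank.

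Several libraries stood apart. One pair of transcripts, left out of the set by its rule, took 81.1% and 76.3% of the total in the leaf 96 h drought libraries, 92.4% in root 24 h control replicate 2 and 23.3% in replicate 1 of that group, and at most 0.0991% elsewhere. The root 96 h control libraries were nearly alike. The median absolute log2 difference between them was 0.05 for transcripts at 10 to 100 and 0.02 at 100 to 1000, a drop by a factor of 2.67 where sampling noise alone would give 2.92. In the other 7 groups this step gave a drop of 0.913 to 1.97, against 2.74 to 3.06 for sampling noise alone. From transcripts at 1 to 10 to those at 10 to 100, the drop in the root 96 h controls was 4.02, against 3.06 for sampling noise alone. In the other groups it was 1.74 to 2.40. The root 96 h controls could be 1 sample deposited as a pair, which was not tested. Their values are given one by one, with no SD, and counted as no more than 1 independent sample. They also listed the most transcripts above 0, 75080 and 71474, against 23194 to 64976 in the other libraries. The fewest were in leaf 96 h drought, 23194 and 23760, and in root 24 h control replicate 2, 24351. All others listed at least 44724. Of the 150 members, 35 were listed at 0 in root 24 h control replicate 2, against 6 in replicate 1.

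In root, the 150 transcripts stood high in the 96 h controls and low in every other group by the median, though not each of them did. Their median value was 43.4 and 44.6 in the 96 h controls. It was 2.99 and 2.84 in the 96 h drought libraries, 4.92 and 3.59 in the 24 h controls and 5.38 and 3.12 in 24 h drought. The 12320 transcripts past the floors had medians of 10.5 to 15.1 in the same libraries. The fall ranged from 5.28 to 93.4 with a median of 8.04, was at least 10 for 54 members and at least 50 for 4. Over ranks 1 to 50, 51 to 100 and 101 to 150 the median of the control means stayed at 43.8, 39.4 and 46.0, while that of the drought means was 0.849, 4.23 and 6.55.

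**Figure D1:**
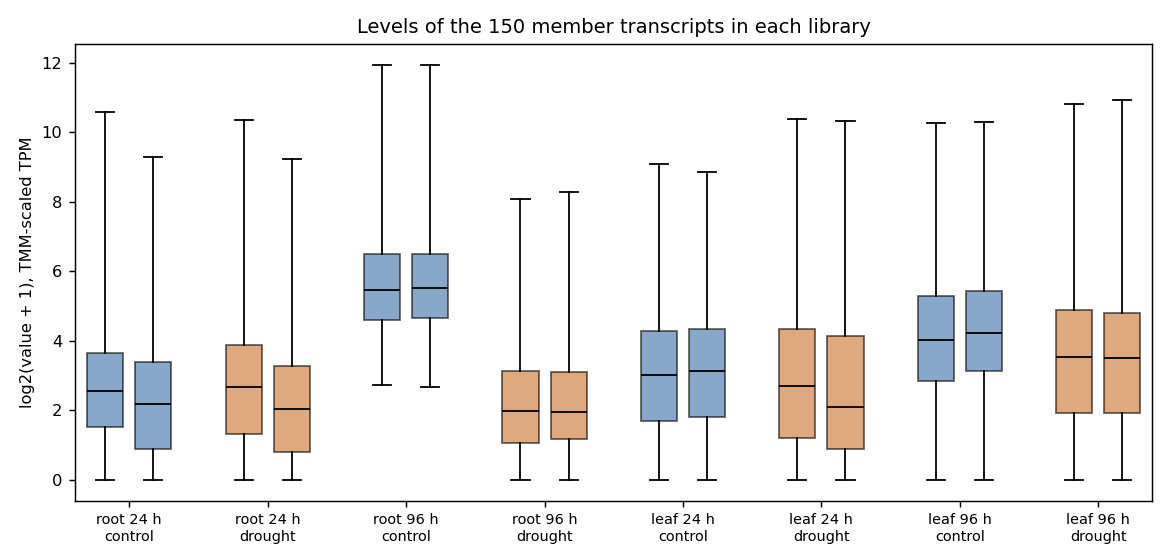
Values of the 150 transcripts in each of the 16 libraries as log2(value + 1), with boxes for the quartiles, a line at the median and whiskers to the lowest and highest member. The root 96 h controls, with medians of 43.4 and 44.6 before the log, lie above all other root libraries, and the leaf 96 h controls, with 15.5 and 17.6, above the leaf 24 h controls.

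The label of a late lowering describes few members, because for most of them the 96 h controls stood above the 24 h level and 96 h drought did not stand below it. The mean of the controls was at least 2-fold higher at 96 h than at 24 h for 136 of 150 transcripts, or 90.7%, with a median ratio of 10.2. Among all transcripts past the floors, 18.9% showed such a ratio. With the same total for all libraries, 144 members and 50.2% of the transcripts past the floors showed it. Both 96 h controls lay above all 4 root 24 h libraries for 140 members, against 30.3% of the transcripts past the floors. The drought mean was at least 2-fold lower at 96 h than at 24 h for 40 members, or 26.7%, against 14.4%, and its median ratio was 0.99. These comparisons share the 96 h libraries with the rule, so nothing is read from the shares. By the median, the drought root stood near its 24 h level while the control root did not. Single members varied: both 96 h drought values lay below all 4 root 24 h libraries for 37, within their range for 56 and above all of them for 39.

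By limits of 2-fold on both ratios, 82 members were higher in the 96 h controls with drought between the limits, 26 were higher in controls and lower in drought, 14 were lower in drought with controls between the limits, and 28 were higher at 96 h in both, a class set apart after the values were seen. Among transcripts past the floors, these classes held 10.8%, 1.95%, 10.8% and 6.07%. Without root 24 h control replicate 2, the library dominated by the pair, these counts were 82, 24, 14 and 28, with 2 in no class. The 28 transcripts higher in both had medians of 2.24 and 1.14 in the 24 h controls, 56.0 and 55.8 in the 96 h controls, and 6.98 and 6.61 in 96 h drought. In them drought at 96 h lay between the early and the late control. The 14 lower in drought alone had medians of 13.7 and 9.16 in the 24 h controls, 12.4 and 14.7 in the 96 h controls, and 0.132 and 0 in 96 h drought.

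**Figure D2:**
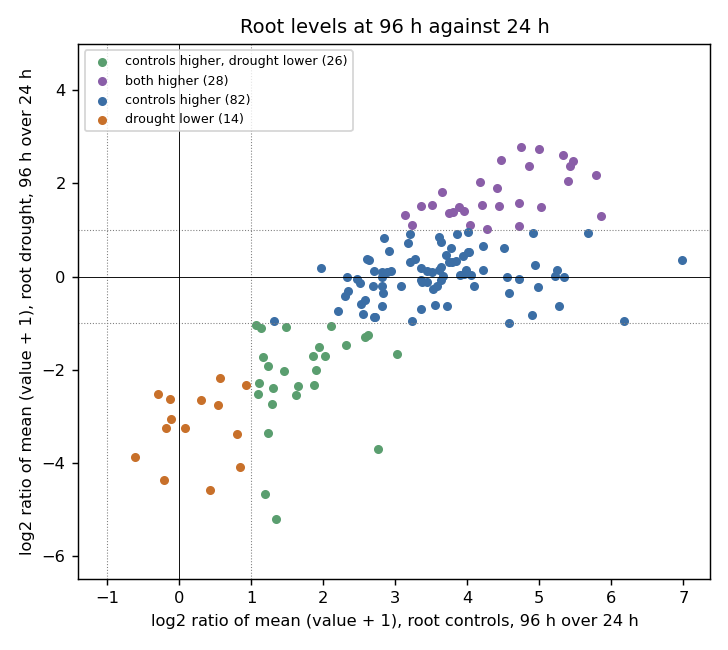
Ratio of mean (value + 1) at 96 h over 24 h on a log2 scale, in root controls (horizontal) and root drought (vertical), 1 point per member, with dotted lines at 2-fold. Most points lie right of the dotted line at 1, where 136 members had controls at least 2-fold higher at 96 h, and 82 of these sit between the horizontal lines.

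TRINITY_DN23690_c0_g1 was first in rank. It was at 214 and 214 in the root 96 h controls and at 1.16 and 1.31 in 96 h drought. In the 24 h libraries it was at 1.42 and 0 in controls and at 1.14 and 0.351 in drought. Its 96 h control values thus lay far above all 6 other root libraries. TRINITY_DN43210_c0_g1, second in rank, showed the same order, at 76.7 and 83.6 in the 96 h controls, 0.026 and 0 in 96 h drought, and 0 to 1.83 in the 24 h libraries.

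The member at rank 39 was the most abundant, a transcript singled out after its values were seen. It was at 3947 and 3925 in the root 96 h controls and at 270 and 313 in 96 h drought. At 24 h it was at 1541 and 622 in controls and at 1303 and 604 in drought, so it lay between the late groups, with replicates more than 2-fold apart in either early group. The member at rank 15 had steady controls, again singled out after the values were seen. It was at 22.5 and 36.6 in the 24 h controls, 25.8 and 25.1 in the 96 h controls and 30.6 and 9.19 in 24 h drought, and was listed at 0 in both 96 h drought libraries. Of all members, 9 were listed at 0 in both root 96 h drought libraries, and 2 of these also in all 4 root 24 h libraries.

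The identifiers group transcripts into components, which are parts of the assembly graph whose transcripts can share reads. Only 4 members shared a component with another member, in 2 components, but 89 had other transcripts of the table in theirs. When values were summed over components, the 0.33 limit at 96 h was passed for 55 of these 89. For members without partners the sum is the member itself, so the rule fixes the outcome and they are left out. For 11 of the 89 the highest drought sum was at least the lowest control sum, and 3 of these 11 had a partner transcript that was at least 3-fold higher in drought. Among members with partners, the summed component passed for 29 of the 38 higher in the late controls alone and for 16 of the 18 higher in both. It passed for 7 of the 19 with controls higher and drought lower, and for 3 of the 14 lower in drought alone. Of those 14, the highest drought sum was below the lowest control sum for 9. The difference between the classes was not tested.

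The 170 other transcripts of these components were not members, but may include some that passed the rule at lower ranks. Of the 63 at 5 or more in a root 96 h group, 12, or 19.0%, passed the same fall and 5, or 7.94%, the reverse, with a median log2 fold change of −0.14. Of all 16120 non-member transcripts at that level, 8.51% passed the fall and 6.54% the reverse, with a median of −0.02. These values come from the root 96 h libraries that the rule used, and partners can share reads with members. The shares are therefore a description, and nothing is read from them.

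Leaf gave the values that the rule had not used beyond a floor on the mean. Transcripts of leaf were tested with limma on log2(value + 1) over the 8 leaf libraries, and rose or fell where the adjusted p over all 28176 tested transcripts was under 0.05. All 150 members passed the filter of at least 1 in at least 2 leaf libraries, as the leaf floor makes likely. Some members met that floor only through a single leaf group, so their changes in leaf are not independent of the rule. Rank 72 met it only through the leaf 96 h controls, at 9.60 and 8.16. Rank 73 met it only through leaf 96 h drought, at 10.8 and 6.63. How many members did so was not counted. Since the members were chosen with the data known, their counts are set beside the shares over all tested transcripts, with no test of the list.

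In control leaf, 76 of 150 members, or 50.7%, were higher at 96 h than at 24 h, and 14, or 9.33%, were lower. Of all tested transcripts, 12.8% were higher and 13.9% lower, and of the 12314 tested ones past the floors 14.3% were higher and 16.0% lower. At least 2-fold rises numbered 70, or 46.7%, against 8.97% of all tested transcripts and 1108 of the 12314 past the floors. At least 4-fold rises numbered 38, or 25.3%, against 2.68% and 3.19%. Members such as rank 72 met the leaf floor only through the leaf 96 h controls, so these counts are not independent of the rule. The median log2 fold change of members was 1.19, against 0 over all tested transcripts. Both leaf 96 h controls lay above both leaf 24 h controls for 100 members, against 39.7% of transcripts past the floors. The age of the seedlings and the time in solution differ together between these controls and cannot be told apart.

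The number higher in control leaf moved with the libraries used. It was 45 members, or 30.2%, without leaf 24 h control replicate 1 or 2, against 6.34% of all tested transcripts in either case. It was 45 without leaf 96 h control replicate 1 and 40, or 26.8%, without replicate 2, against 4.56% and 4.31%. Without both leaf 96 h drought libraries, which the pair dominated, 90 members of 146 tested were higher, or 61.6%, against 23.3%. The median of members minus that of all tested transcripts ran from 0.79 with a pseudocount of 5 to 1.29 with one of 0.1.

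**Figure D3:**
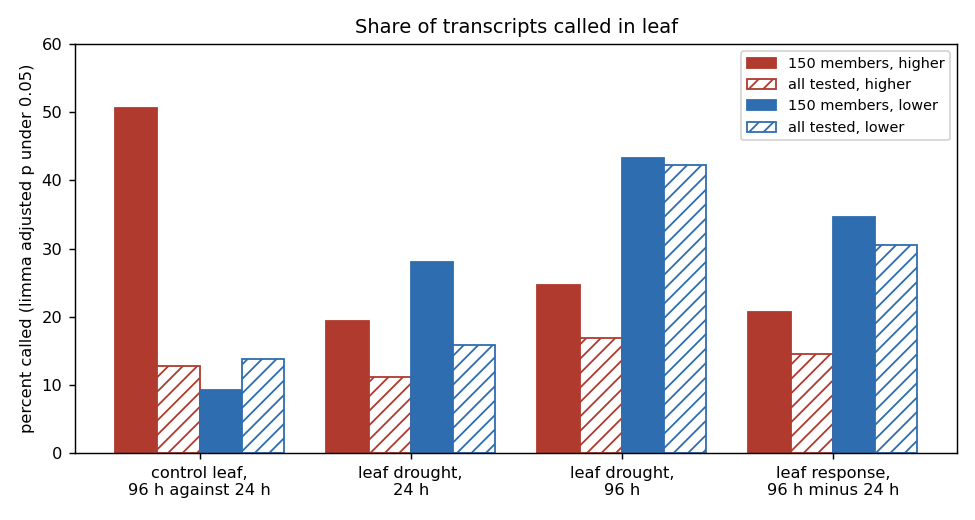
Percent of the 150 members (filled bars) and of all 28176 tested transcripts (hatched bars) called higher or lower by limma in 4 comparisons of leaf. The bar for members higher in control leaf at 96 h stands at 50.7% beside 12.8% for all transcripts, while the bars for a fall in leaf 96 h drought stand at 43.3% and 42.2%.

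The count of members higher in late control leaf is given by root pattern. Of the 28 members higher at 96 h in both root conditions, 21 were higher in the late control leaf, with a median log2 fold change of 2.33. Of the 82 higher in root controls alone, 46 were, with a median of 1.19. Of the 26 with root controls higher and drought lower 7 were, and of the 14 lower in root drought alone 2 were, with medians of 0.85 and 0.22. The difference between these groups was not tested. The 267 transcripts that passed the rule at lower ranks gave 163 higher, or 61.0%, and a median of 1.11.

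After 24 h of PEG the members moved both ways in leaf. Of 150, 42 fell, or 28.0%, against 15.9% of all tested transcripts, and 29 rose, or 19.3%, against 11.2%. Of the transcripts past the floors, 15.7% fell and 15.4% rose. Of the 267 that passed the rule at lower ranks, 20.2% fell and 22.8% rose. The median log2 fold change of members was −0.17, against −0.02 over all tested transcripts. Falls numbered 26 without leaf 24 h control replicate 1 or 2, with 5.93% and 5.98% of all tested transcripts falling. Rises then numbered 16 and 14, with 4.74% and 4.70% of all tested transcripts rising. In the group higher in root controls alone, 32 of 82 fell and 12 rose. In the group lower in root drought alone, 1 of 14 fell and 4 rose, with a median of 1.27.

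After 96 h of PEG, the time at which the root difference was defined, 65 members fell in leaf, or 43.3%, against 42.2% of all tested transcripts. The share was 49.1% of those past the floors and 65.2% of the 267 that passed the rule at lower ranks. Rises numbered 37, or 24.7%, against 16.9%, 16.6% and 15.0%. These counts are not independent of the rule where members met the leaf floor only through the late controls or the late drought leaves. The median log2 fold change of members was −0.67, and that of all tested transcripts −0.59. The pair dominated both drought libraries, and the balance moved with the scaling, for members and for all transcripts. Median-ratio size factors gave 58 falls and 44 rises among members, or 38.7% and 29.3%, against 34.9% and 22.4% of all tested transcripts. Removing the pair before scaling gave 86 and 21, or 57.3% and 14.0%, against 58.2% and 9.85%. Equal totals for all libraries gave 127 and 8, or 85.2% and 5.37%, against 82.0% and 2.33%. The median of all tested transcripts was −0.31, −1.07 and −1.99 under these scalings, and the members lay 0.03 above it and 0.38 and 0.81 below it.

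The limits of the rule, applied to leaf, were also met by some members. A leaf 96 h fall past 0.33 was met by 43 members, or 28.7%, against 18.6% of the transcripts past the floors. With the 24 h limits added, 22 members were left, or 14.7%, against 13.0%, and they made up 1.37% of the 1603 transcripts that met these limits in leaf. A rise past the same limit at 96 h was met by 19 members, or 12.7%, against 4.46%. Some of these 19, such as rank 73, met the leaf floor only through leaf 96 h drought.

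Control leaf over time and leaf 96 h drought share the leaf 96 h controls, so a high control value moves both, and no overlap of their calls is given. In leaf drought, 27 members, or 18.0%, fell at both times, against 10.6% of all tested transcripts and 11.8% of those past the floors. Rises at both times numbered 16, or 10.7%, against 4.61% and 6.65%. Another 6 rose at 24 h and fell at 96 h, or 4.00% against 2.86% and 4.44%, and 5 did the reverse, or 3.33% against 0.901% and 1.29%. The response at 96 h was lower than at 24 h for 52 members, or 34.7%, by limma's interaction test. This was above the 30.5% of all tested transcripts and below the 37.6% of those past the floors. It was higher for 31, or 20.7%, against 14.6% and 11.7%. No call was made for 22 members in either drought comparison or over time, or 14.7%, against 29.4% and 23.2%.

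**Figure D4:**
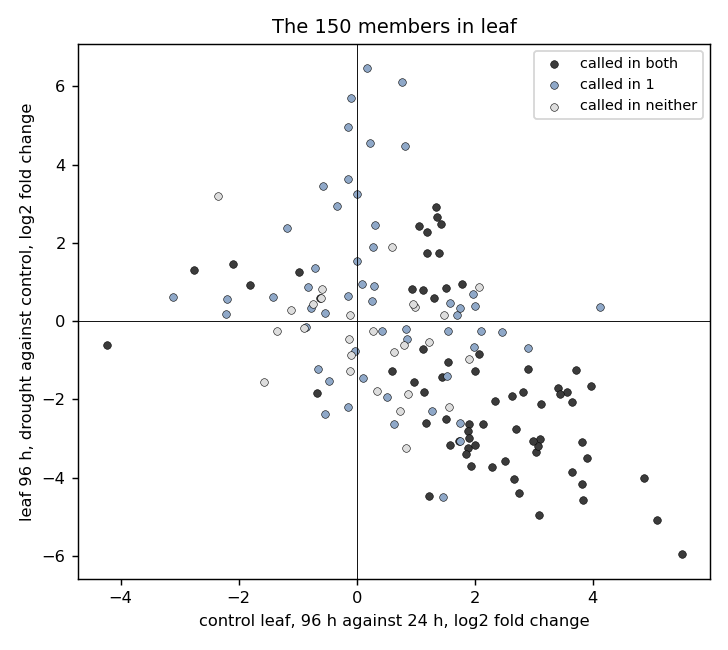
Log2 fold changes of the 150 members in leaf, for controls at 96 h against 24 h (horizontal) and for drought against control at 96 h (vertical), coloured by whether limma called a member in both, 1 or neither. Both axes use the leaf 96 h controls with opposite sign, which by itself tilts the points downward to the right.

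The first member in rank was highest in the late controls in leaf too, but was already lower in drought at 24 h there. TRINITY_DN23690_c0_g1 was at 111 and 96.1 in the leaf 24 h controls and at 878 and 891 in the 96 h controls (log2 fold change 3.08, SE 0.24, limma adjusted p = 0.000613, 8.59e-05 to 0.0127 over the alternatives). In leaf drought it was at 17.8 and 11.7 at 24 h and at 32.7 and 23.2 at 96 h. All drought leaves were thus below all control leaves, with log2 fold changes of −2.76 at 24 h (SE 0.24, limma adjusted p = 0.000841) and −4.95 at 96 h (SE 0.24, limma adjusted p = 4.8e-05).

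TRINITY_DN43210_c0_g1 was at 10.6 and 10.2 in the leaf 24 h controls and at 35.2 and 36.5 in the 96 h controls. The rise (log2 fold change 1.70, limma adjusted p = 0.0402) did not pass without any 1 of these 4 libraries, and missed the threshold under 9 alternatives, with adjusted p from 0.000143 to 0.181 over all alternatives. In 96 h drought it was at 25.7 and 63.3, which spans the controls, and at 24 h at 5.17 and 2.51.

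Leaf and root parted in other members. TRINITY_DN38091_c0_g2, at rank 94, had the largest rise in leaf at 24 h of PEG, from 5.36 ± 1.12 to 125 ± 8.08 (mean ± SD, n = 2 each; log2 fold change 4.32, SE 0.15, limma adjusted p = 9.7e-05). In root it was at 48.8 and 49.8 in the 96 h controls and at 5.34 to 6.87 in all 6 other libraries. At 96 h the leaf drought values, 51.9 and 57.1, stood above the controls, 14.7 and 16.4 (log2 fold change 1.75, limma adjusted p = 0.000278), but below them once all libraries had the same total (log2 fold change −1.18).

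TRINITY_DN36817_c0_g2, at rank 25, had the largest fall in leaf at 24 h. It was at 26.1 and 29.5 in the 24 h controls and listed at 0 in all 4 leaf drought libraries (limma adjusted p = 0.000164 at 24 h). Unlike the first ranks it was low in the late control leaf, at 0.334 and 0.76, a fall over time (limma adjusted p = 0.00025). It met the rule's floor on the leaf mean only through the leaf 24 h controls, so these falls are not independent of the rule. In root it was at 26.1 and 28.3 in the 96 h controls and at no more than 0.818 elsewhere.

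TRINITY_DN46741_c0_g1, at rank 20, had the largest rise in leaf at 96 h. It was at 0.334 and 0.119 in the controls and at 90.0 and 127 in drought (log2 fold change 6.46, SE 0.52, limma adjusted p = 0.00021). Control leaf held almost none at 24 h either, with 0 and 0.161. It thus met the rule's floor on the leaf mean only through its drought leaves, so its rise in leaf is not independent of the rule. In root the order was opposite, with 192 and 194 in the 96 h controls and 7.69 and 6.70 in 96 h drought. Its partner at rank 127, from the same component, was at 38.3 and 40.5 against 3.96 and 5.62 in the same root libraries, and at 52.6 and 50.3 in leaf 96 h drought against 0 and 0 in the leaf 96 h controls. The partner also met that floor only through its drought leaves. Reads of the pair can be shared, so they are not independent.

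TRINITY_DN48207_c2_g3, at rank 126, had the largest fall in leaf at 96 h, from 461 ± 66.3 to 6.42 ± 1.41 (mean ± SD, n = 2 each; log2 fold change −5.97, SE 0.21, limma adjusted p = 3.0e-05). The late control leaf was high against 9.01 and 9.20 at 24 h (log2 fold change 5.51, SE 0.21, limma adjusted p = 0.000215). In root it was one of the 14 lower in drought alone, at 51.6 and 52.1 in the 96 h controls, 43.5 and 54.7 in the 24 h controls, 69.8 and 92.8 in 24 h drought and 7.84 and 7.30 in 96 h drought.

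**Figure D5:**
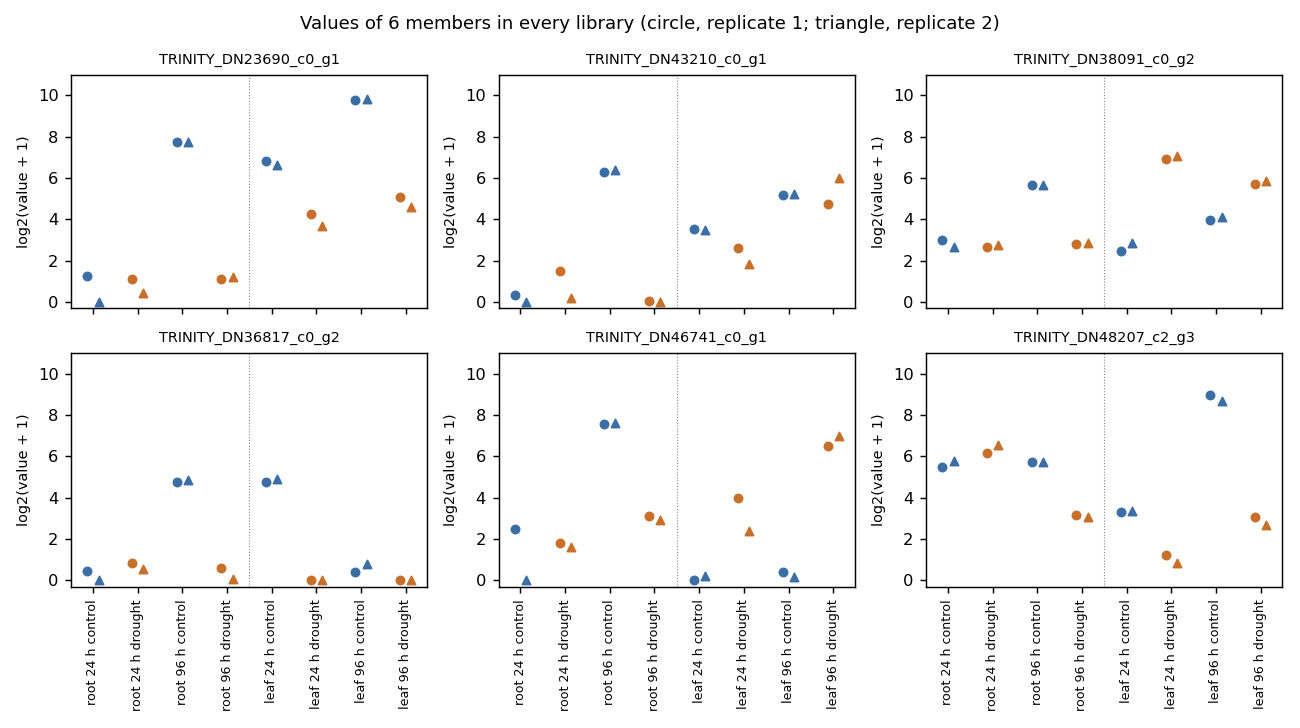
Log2(value + 1) of the 6 named members in each library, with controls in blue, drought in orange, root left and leaf right of the dotted line. In root, 5 of the 6 are high in the 96 h controls alone, and in leaf each takes its own course.

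The levels of leaf against root turned with the group. In the 24 h controls 63 members, or 42.0%, were higher in root than in leaf, near the 44.9% of transcripts past the floors. In the 96 h controls 119 were, or 79.3%, against 57.0%. The median log2 ratios of root over leaf were −0.41 and 1.38. In 96 h drought 43 were higher in root, or 28.7%, against 70.2%, with a median of −1.32. Over the transcripts past the floors these medians were −0.11, 0.13 and 0.80. The root 96 h controls chose the members, so this is a description.

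Spearman correlations with the leaf 96 h controls, across 14141 transcripts with a mean of at least 5, were 0.521 to 0.542 for the root 96 h controls. They were 0.339 to 0.376 for the root 24 h controls, 0.327 to 0.369 for root 24 h drought and 0.365 to 0.378 for root 96 h drought. Between root and leaf of the same time and treatment, they were 0.382 to 0.437 in the 24 h controls. In 96 h drought they were 0.303 to 0.326. As a measure of leaf RNA in root, 28 leaf-typical transcripts were taken after the values were seen, at 500 or more in both leaf 24 h controls and under 10 in 3 root 24 h libraries. Their summed level in the root 96 h controls was 1.35% and 1.44% of that in the leaf 96 h controls with the same replicate number, and 1.23% and 1.19% in 96 h drought against leaf 96 h drought. The summed level of the 150 members in the root 96 h controls was 199% and 188% of that in the leaf 96 h controls. The members were chosen for high values in these libraries and the leaf-typical transcripts for low values in root, so these shares cannot be set against each other, and the part of leaf RNA in the result was not tested.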

How the data were processed

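Per the submitters' processing notes, FastQC 0.11.5, Trimmomatic 0.35, RSEM and edgeR were used, in roles not given there. How reads were assembled, aligned and filtered is not stated in these sources. The authors deposited 1 table of TMM-scaled signal per transcript for 16 libraries; 2 stem samples were not analysed here. Depth is unknown, so no counting intervals are given.

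The members and lists were chosen with earlier results of these data known. Leaf was fitted with limma 3.58.1 in R 4.3.3 on log2(value + 1), with 1 coefficient per group, trend and robust options, transcripts at 1 or more in at least 2 of 8 leaf libraries, and Benjamini-Hochberg adjustment at 0.05. Log2 fold changes on this scale understate the changes of low transcripts. P-values cover only the spread among these libraries. Identifiers printed are the first 2 ranks and, in leaf at each time, the called member with the largest rise and fall, at 10 or more in the higher group, with drought and control libraries not overlapping. In simulated data with 28176 transcripts, 100 were given each size of change in each comparison. Of changes by 2 log2 units, 69% were found in the 24 h drought contrast and 61% in the 96 h one. The share was 57% over time in control leaf and 9% for the difference between responses. Of changes by 1 log2 unit, 11%, 16%, 17% and 0% were found, in the same order. The real data gave far more calls, with 42.2% of tested transcripts lower in leaf 96 h drought. The Benjamini-Hochberg cut-off moves with the number of calls, so these shares cannot be carried over to the counts above.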

Additional observations from a re-analysis of the deposited data

Results flagged for a closer look

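The leaf response to PEG differed between the times by limma's interaction test (adjusted p under 0.05) for some members. It was lower at 96 h than at 24 h for 52 members, or 34.7%. The share was 30.5% of all tested transcripts and 37.6% of those past the floors. It was higher for 31 members, or 20.7%, against 14.6% and 11.7%. Of the 267 that passed the rule at lower ranks, 53.2% were lower and 10.9% higher. Median-ratio size factors gave 35 lower and 41 higher, or 23.3% and 27.3%, against 23.6% and 19.1% of all tested transcripts. Removing the pair before scaling gave 77 and 19, or 51.3% and 12.7%, against 52.1% and 8.20%. The balance moved with the scaling for members and for all transcripts. Among the named members, the difference on the log2 scale, 96 h minus 24 h, was −2.20 for TRINITY_DN23690_c0_g1, −2.57 for TRINITY_DN38091_c0_g2, 3.39 for TRINITY_DN46741_c0_g1 and −3.66 for TRINITY_DN48207_c2_g3 (limma adjusted p = 0.00413, 0.00084, 0.0137 and 0.000762). For TRINITY_DN46741_c0_g1 the adjusted p ran from 0.00457 to 0.679 over the alternatives. For TRINITY_DN36817_c0_g2 the fitted difference was 4.23 (limma adjusted p = 0.000618), but all 4 leaf drought libraries list it at 0, so this value is that of its controls.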

How the results depend on the processing

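The number of transcripts past the rule was 417. It was 244 with a limit of 0.25, 934 with one of 0.5, and 369 to 528 with 1 root library left out. With root 24 h control replicate 2 or 1 left out, 134 or 138 members had late root controls at least 2-fold above the early ones. This number was 127 with median-ratio factors, 126 with the pair removed and 144 with the same total. The shares of transcripts past the floors were 15.2%, 14.3% and 50.2% in these settings.

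With 1 leaf library left out, 26 to 60 members were lower and 14 to 43 higher in leaf 24 h drought. In leaf 96 h drought 54 to 75 were lower and 28 to 41 higher. For the difference between responses these were 30 to 71 and 24 to 41, and in control leaf over time 4 to 22 and 40 to 90. The shares of all tested transcripts moved too. In leaf 24 h drought they were 5.93% to 26.2% lower and 4.70% to 20.8% higher. In leaf 96 h drought they were 30.5% to 50.3% and 13.6% to 19.0%. For the difference they were 18.8% to 42.7% and 8.42% to 18.0%, and in control leaf 4.82% to 23.3% and 4.31% to 22.6%. The lowest counts came without a leaf control library and the highest without a leaf 96 h drought library. Scaling to the same total gave 127 lower and 8 higher in leaf 96 h drought, against 82.0% and 2.33% of all tested transcripts. For the difference between responses it gave 119 and 10, against 78.9% and 3.89%. With the pair removed, 21 were higher in leaf 96 h drought and 19 for the difference, against 9.85% and 8.20% of all tested transcripts. With no filter, 34 were lower for the difference, where more transcripts were tested and 7.90% of them were lower. In control leaf, 9 were lower with a pseudocount of 0.1, 25 with the 4 compared libraries alone and 23 without both leaf 96 h drought libraries. Of all tested transcripts, 12.5%, 29.0% and 24.2% were lower in these settings. The cause of the other changes was not tested.

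The log2 fold change of TRINITY_DN38091_c0_g2 in leaf at 96 h was −1.18 with the same total. Of the values of named transcripts under alternatives, 373 were counted as the same, 25 no longer passed and 5 newly passed. Of the values that had passed, 1 changed sign. A value that had not passed was counted as the same when its sign changed, so sign changes among such values were not counted. Replicate differences of the leaf groups correlated at −0.0317 to 0.0046, so the numbers did not pair libraries. With a replicate block, 41 members were lower and 26 higher in leaf 24 h drought, against 13.8% and 9.34% of all tested transcripts. In leaf 96 h drought these were 63 and 36, against 41.0% and 16.3%. For the difference they were 46 and 31, against 27.9% and 13.5%. In control leaf over time they were 12 and 71, against 12.2% and 11.1%. Of the 150 members, the first 150 ranks held 60 with no floor on the leaf mean, 97 with the same total, 108 with 5 added, 127 with 0.1 added, 128 with the pair removed, 140 with median-ratio factors and 115 to 129 without 1 root library. The 2 libraries per group and the unknown depth limit all of these.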
